A study of Mus musculus with 14 samples.

Results

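NF-kappaB is a family of dimeric transcription factors built from 5 subunits, encoded by Nfkb1, Nfkb2, Rel, Rela and Relb. In resting cells inhibitor proteins hold the dimers in the cytoplasm. Signals from the T cell receptor and from receptors of the tumour necrosis factor family activate a kinase complex that marks the inhibitors for destruction. In the canonical arm dimers with Rela or Rel are released, while in the non-canonical arm the Nfkb2 precursor is processed and pairs with Relb. Several genes that NF-kappaB induces then act back on the pathway. Nfkbia encodes the inhibitor that recaptures the dimers, and Tnfaip3 an enzyme that removes and edits ubiquitin chains on signalling proteins. Traf1 and Birc3 encode an adaptor and a ubiquitin ligase at tumour necrosis factor receptors, and Bcl3 a nuclear co-regulator of the inhibitor family. In the thymus the pathway acts during positive selection and in the development of regulatory T cells, and in peripheral T cells it serves survival and activation.

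The 5 subunit genes and 5 feedback genes were chosen by name, with earlier results of these data known. Of these 10 genes, 9 were found among the 19937 genes with a probe set of their own, each with 1 such probe set, and all 9 were among the 13641 genes tested. No probe set of the annotation used carried the symbol Nfkb1, so that gene was not analysed here. Levels are given as log2 values made by the authors with RMA, which removes background, forces arrays to a shared distribution and condenses each set of probes into a single value.

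T cells sorted from C57BL/6 mice, either wild type (WT) or carrying the label ENK KO, were profiled on 14 arrays. CD4+CD8+ thymocytes, the stage at which the T cell receptor is tested for selection, came from the thymus. The 3 WT samples were labelled 7 months old (2 males, 1 female), and the ENK KO group held a 7-month-old male and a 2-month-old female. CD8+ T cells came from the spleen, as 4 WT samples of 7 months (labelled as 3 males and 1 female) and 5 ENK KO samples. The latter were 2 females of 2 months and males of 6, 7 and 9 months. Age and sex therefore coincided within ENK KO. What ENK stands for is not written in the labels, nor are the allele and the cells in which it acts. The series title names Engrailed-2 and a leukaemia, but no sample label mentions leukaemic cells.

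Cd4, Cd8a, Cd8b1 and Rag1 followed the sorted populations on all arrays but spleen ENK KO replicate 28, called so here by its label. There Cd4 stood at 12.20, against at most 6.92 on the other spleen arrays, and Cd8a at 6.78, against at least 12.06. Foxp3 and Il2ra, genes of regulatory T cells, were at 9.87 and 11.14, against at most 7.48 and 7.12. Values for ENK KO spleen include this library unless stated otherwise. Counts of members called between genotypes in spleen are also given without it. Spleen WT replicate 22, labelled female, had Xist at 5.90, against at least 12.36 on the other arrays labelled female. Eif2s3y and Kdm5d, genes of the Y chromosome, were at least 10.17 and 9.65 on all 4 WT spleen arrays. Their lowest values in ENK KO spleen were 4.26 and 5.82. The label female and the values of WT replicate 22 thus disagree. Arrays of the same tissue shared values equal to the last digit at 24.6% to 30.5% of probe sets in thymus and at 4.32% to 7.85% in spleen. Between tissues no value coincided in any of 45 pairs of arrays. Thymus and spleen were therefore treated as summarised separately, which the labels do not state, and differences between tissues cannot be told apart from differences between the summarisations. Equal values also make the spread within thymus look smaller than it was: Nfkb2 and Nfkbia each had 1 value on all 3 WT thymus arrays, and Bcl3 had 1 value on 4 of the 5 thymus arrays.

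Nfkbia and Tnfaip3 are textbook targets of NF-kappaB, whose dimers bind kappaB sites in DNA, so the 250 bases before the start of 4 genes are printed, from RefSeq on GRCm38.p6. Of the members, 8 had such a window, and 4 of these 8 held at least 1 match to the kappaB consensus in 1 of their windows: Nfkb2, Rel, Nfkbia and Tnfaip3. The consensus was searched on both strands and overlapping matches were kept. Among all tested genes with a window, 1149 of 10823 (10.6%) held a match. Capitals mark the matches, which describe letters and not bound sites.
Nfkbia, chr12:55492648-55492897, strand -: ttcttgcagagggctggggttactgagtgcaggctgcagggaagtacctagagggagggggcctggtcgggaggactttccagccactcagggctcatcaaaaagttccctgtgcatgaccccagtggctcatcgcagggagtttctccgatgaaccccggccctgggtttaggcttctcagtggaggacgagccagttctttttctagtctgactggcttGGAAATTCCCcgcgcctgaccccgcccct
Tnfaip3, chr10:19015411-19015660, strand -: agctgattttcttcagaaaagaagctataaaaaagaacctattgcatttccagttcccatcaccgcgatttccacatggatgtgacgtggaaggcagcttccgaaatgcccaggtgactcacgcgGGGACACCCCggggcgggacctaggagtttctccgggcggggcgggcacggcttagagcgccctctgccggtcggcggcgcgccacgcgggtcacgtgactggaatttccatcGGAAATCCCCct
Rel, chr11:23770970-23771219, strand -: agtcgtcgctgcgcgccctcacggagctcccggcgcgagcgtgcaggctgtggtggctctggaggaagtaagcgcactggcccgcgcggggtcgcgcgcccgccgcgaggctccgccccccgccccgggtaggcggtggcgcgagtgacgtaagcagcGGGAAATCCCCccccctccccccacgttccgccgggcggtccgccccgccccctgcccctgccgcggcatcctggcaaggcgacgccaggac
Nfkb2, chr19:46304487-46304736, strand +: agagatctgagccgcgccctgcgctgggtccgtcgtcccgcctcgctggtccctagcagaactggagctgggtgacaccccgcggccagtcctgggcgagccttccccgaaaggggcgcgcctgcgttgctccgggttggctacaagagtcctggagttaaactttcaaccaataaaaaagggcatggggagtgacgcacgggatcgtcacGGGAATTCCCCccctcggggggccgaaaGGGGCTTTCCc
The match in Nfkbia, GGAAATTCCC, began 29 bases before the start. In Tnfaip3 the matches were GGGACACCCC and GGAAATCCCC, 125 and 12 bases before it. Rel carried GGGAAATCCC and GGAAATCCCC, which overlap 92 and 91 bases before the start. In the first Nfkb2 window the overlapping GGGAATTCCC and GGAATTCCCC stood 39 and 38 bases before the start and GGGGCTTTCC 11 bases before it. The further Nfkb2 windows, for other starts, held GGAATGTCCC and GGGACTTTCC. The windows of Rela, Traf1, Bcl3 and Birc3 and a further window of Tnfaip3 held none of these letters.

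Subunit genes were higher in spleen CD8+ cells than in CD4+CD8+ thymocytes in both genotypes. Relb, the partner of the processed Nfkb2 product, was at 7.24 ± 0.02 (SD, n = 3) in WT thymus and 8.36 ± 0.24 (n = 4) in WT spleen, a 2.18-fold difference (log2 1.12, SE 0.11). The 4 WT spleen arrays read 8.20, 8.21, 8.33 and 8.71, and the thymus arrays 7.22, 7.23 and 7.27. In ENK KO the thymus arrays stood at 7.06 and 7.22, while the 5 spleen arrays spanned 8.02 to 8.39. No spleen array overlapped a thymus array. Rel, the subunit most tied to lymphocyte activation, rose from 10.42 ± 0.10 to 11.37 ± 0.30 in WT, a 1.93-fold difference (log2 0.95, SE 0.14), and by 1.04 (SE 0.16) in ENK KO. Nfkb2 differed by 0.93 (SE 0.12) in WT and 0.74 (SE 0.13) in ENK KO. Rela, the main activating subunit of the canonical arm, differed by 0.68 (SE 0.07) and 0.73 (SE 0.08).

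Among the feedback genes, Traf1 and Bcl3 differed most between the populations. Traf1 was at 7.73, 7.87 and 8.36 on the WT thymus arrays and at 10.34, 10.46, 10.51 and 10.63 on the WT spleen arrays. The 2 ENK KO thymus arrays read 7.79 and 7.87, and the 5 from spleen 10.22 to 10.38. All spleen arrays lay above all thymus arrays, and the difference was 5.64-fold in WT (log2 2.50, SE 0.12) and 5.56-fold in ENK KO (log2 2.48, SE 0.13). Bcl3 was at 7.36 to 7.45 on all 5 thymus arrays. In spleen it read 9.13, 9.38, 9.47 and 9.73 in WT and 8.89, 9.07, 9.11, 9.26 and 9.33 in ENK KO. The difference was 4.04-fold in WT (log2 2.01, SE 0.12) and 3.22-fold in ENK KO (log2 1.69, SE 0.13).

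The inhibitors Nfkbia and Tnfaip3 and the ligase gene Birc3 did not separate the populations in WT. Nfkbia had a mean of 11.36 in WT thymus and 11.29 ± 0.28 in WT spleen (log2 difference -0.08, SE 0.16). Tnfaip3 was at 11.61 ± 0.45 and 11.92 ± 0.73 (0.30, SE 0.48), and Birc3 at 9.61 ± 0.03 and 9.76 ± 0.24 (0.15, SE 0.12). Spleen and thymus arrays overlapped for each of these 3 genes in both genotypes. Of the genes with a kappaB match, Nfkb2 and Rel were called between the populations in both genotypes, Nfkbia in ENK KO only and Tnfaip3 in neither. Of those without a match, Rela, Traf1 and Bcl3 were called in both and Birc3 in neither. Relb, called in both, had no window.

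**Figure D1:**
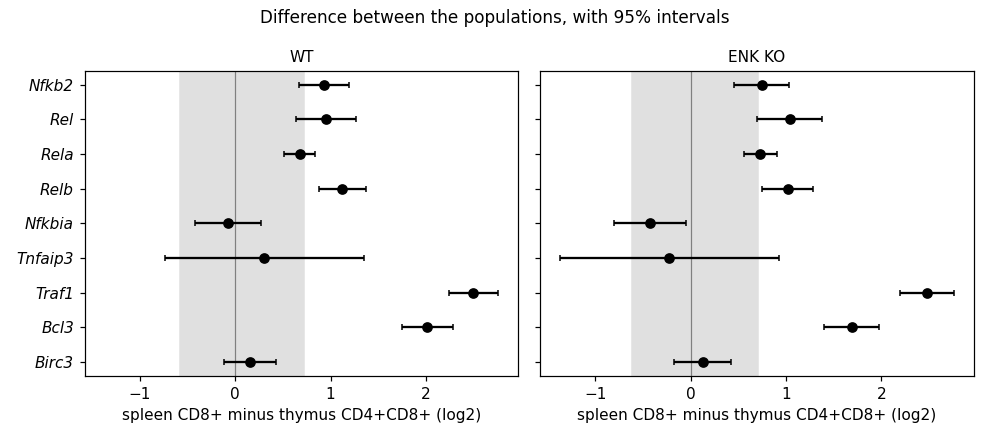
Difference in RMA value between spleen CD8+ cells and CD4+CD8+ thymocytes (log2, x axis) for 9 genes (y axis), in WT and in ENK KO, with 95% intervals from limma as bars. Grey bands hold the central 95% of the same difference over the 6296 genes below the signal filter, -0.58 to 0.72 in WT and -0.61 to 0.70 in ENK KO. The filter itself limits that band. Traf1 and Bcl3 lie far to its right, while Rela, at 0.68, lies inside it in WT. In ENK KO Rela at 0.73 and Nfkb2 at 0.74 lie close above its upper end.

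By limma across all genes, with an adjusted p under 0.05 (Benjamini-Hochberg) counted as a call, 6 of 9 members were higher in spleen in WT and 0 lower. Over all tested genes 68.6% were called, 30.5% higher and 38.2% lower. In ENK KO 6 were higher and 1, Nfkbia, was lower, against 64.4% called, 27.4% higher and 37.1% lower. The Nfkbia call (log2 -0.43, SE 0.17, adjusted p = 0.0473 by limma) was lost when spleen ENK KO replicate 28 was left out (adjusted p = 0.052). The 2 thymus ENK KO arrays read 11.18 (7 months) and 11.68 (2 months) for Nfkbia. Leaving out the 2-month-old mice leaves only the first of them, against which the difference was -0.04. The median difference over the members was 0.93 in WT and 0.74 in ENK KO, against -0.04 and -0.06 over all genes tested. These p-values cover the spread between arrays but not an offset between separate summarisations. Over the 6296 genes below the signal filter the median difference was 0.05 in WT and 0.02 in ENK KO. Their central 95% ran from -0.58 to 0.72 in WT, a spread of single low genes that the filter itself limits. The WT difference of Rela, 0.68, lay within that range.

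The same 6 genes, Nfkb2, Rel, Rela, Relb, Traf1 and Bcl3, had spleen arrays wholly above thymus arrays in WT and in ENK KO. Groups did not overlap for 71.8% of all tested genes in WT and 70.5% in ENK KO. In bulk samples, a smaller share of cells with a transcript and less transcript per cell cannot be told apart. B cells also use this pathway, and B cell markers moved with tissue, 4 of 6 tested being called higher in WT spleen: 6 of 7 markers were measured, and their mean log2 level was 6.69 to 6.79 in thymus, 7.50 to 7.95 in WT spleen and 6.82 to 7.91 in ENK KO spleen without replicate 28. Ms4a1 and Cd79a, defining B cell genes, were 2.06 (SE 0.25) and 1.78 (SE 0.31) log2 units higher in WT spleen than in WT thymus. On the spleen arrays they spanned 6.13 to 7.76 and 6.09 to 8.15, around the signal filter of 6.76. Cd79b, with the highest values of the list, went the other way without a call. Its mean was 9.80 in WT thymus and 9.53 in WT spleen (-0.28, SE 0.26), while the other 5 genes lay above 0. The summed signal of the list (log2) was 10.2 to 10.4 in thymus and 10.4 to 10.9 in WT spleen. Myeloid markers, all 7 measured, had a mean of 7.08 to 7.22 in thymus and 7.04 to 7.29 in WT spleen, and 6.93 to 7.78 in ENK KO spleen without replicate 28. Of 4 platelet and red cell genes tested, 3 were called higher in WT spleen, among them Ppbp by 2.99 (SE 0.19) and Alas2 by 1.98 (SE 0.29). Of 3 natural killer cell genes 2 were, Tyrobp by 0.53 (SE 0.14) and Fcer1g by 0.75 (SE 0.18). The third, Gzma, was at -1.06 (SE 0.58). The mean log2 level of all 5 listed natural killer genes was 6.43 to 6.61 in WT thymus and 6.28 to 6.51 in WT spleen. The part of these cells in the member values was not tested.

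**Figure D2:**
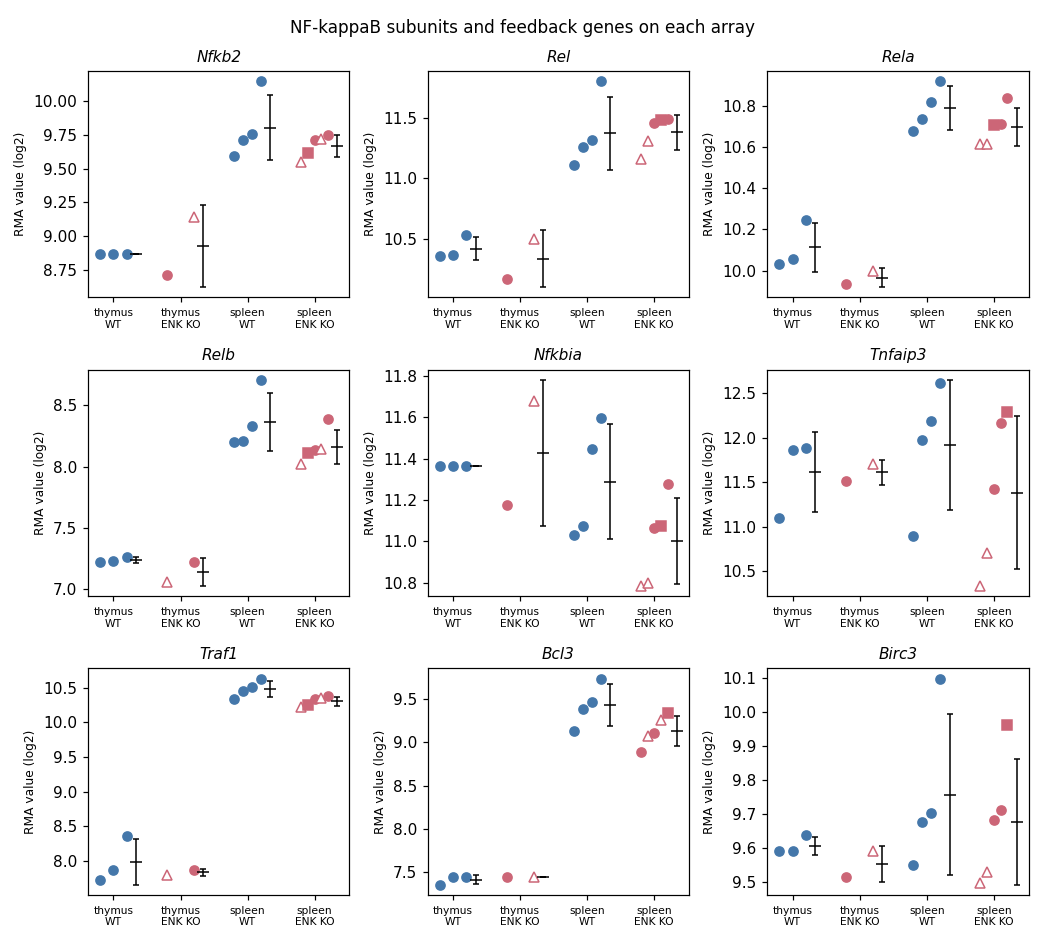
RMA value (log2, y axis) of 9 genes on each array, by tissue and genotype (x axis), WT in blue and ENK KO in red. Open triangles are 2-month-old animals, filled squares the library labelled replicate 28 of spleen ENK KO, and black bars the mean ± SD beside each group. Spleen arrays lie above all thymus arrays for 6 genes, while Nfkbia, Tnfaip3 and Birc3 overlap.

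The rest of the pathway was read from lists of 68 further genes, 61 of them tested. In WT, 37 were higher and 12 lower in spleen CD8+ cells (median 0.43), and in ENK KO 38 and 12, beside 30.5% higher and 38.2% lower over all genes in WT and 27.4% and 37.1% in ENK KO. Among kinases and their adaptor or regulatory partners, listed together, 3 of 9 genes were higher and 3 lower, shares near those over all genes. The higher ones were all kinase genes, while the lower ones included adaptor genes. Map3k14, the kinase that starts the non-canonical arm, differed by 1.27 (SE 0.07), Ikbke by 1.51 (SE 0.11) and Ikbkb, a catalytic subunit of the canonical kinase complex, by 0.84 (SE 0.05), while the adaptor gene Tab2 differed by -0.51 (SE 0.05). On the route from the T cell receptor, 2 of 3 genes were higher, namely Malt1, a paracaspase, at 1.28 (SE 0.09) and Prkcq, the protein kinase C of T cells, at 0.73 (SE 0.05), with Bcl10 at 0.09 (SE 0.14).

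Adaptors and ubiquitin enzymes also had 3 of 9 higher and 3 lower, near the shares over all genes. Traf5, an adaptor of tumour necrosis factor receptors, differed by 2.84 (SE 0.05), with Rnf31 at 0.44, Traf6 at -0.72 and Traf2 at -0.40. Of 7 other negative regulators, 6 were higher and 1 lower, among them Cyld, a deubiquitinase, at 0.67 (SE 0.04), Zc3h12a, an RNase, at 0.95 (SE 0.20), N4bp1 at 0.56 and Otulin at 0.38. Of the 4 other inhibitor genes, Nfkbid (1.06, SE 0.27), Nfkbiz (0.93, SE 0.24) and Nfkbib (0.43, SE 0.07) were higher, and Nfkbie was at -0.03 (SE 0.12).

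Of 12 receptor genes tested, 7 were higher and 3 lower. Il18r1, a chain of the interleukin-18 receptor, differed by 5.02 (SE 0.12), and Tnfrsf1b and Tnfrsf1a, the receptors of tumour necrosis factor, moved in opposite directions, by 1.90 (SE 0.13) and -1.17 (SE 0.09). Tnfrsf13c differed by 1.19 (SE 0.06). Of 17 genes listed as other targets, 13 were higher and 2 lower. Whether each is a target in these cells was not tested. The chemokine receptor gene Ccr7 was at 4.25 (SE 0.13), Irf1 at 1.99 (SE 0.09) and Relt at 1.18 (SE 0.10). Bcl2l1, a survival gene, went the other way at -2.85 (SE 0.05). The limit of separate summarisation applies to all of these values.

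In CD4+CD8+ thymocytes no member differed detectably between ENK KO and WT. Limma called 0 of 9 members, against 0.0147% of all genes, and 0 of 9 had an unadjusted p under 0.05, against 3.53%. The differences ran from -0.16 for Traf1 to 0.06 for Nfkbia, 6 below and 3 above 0, with a median of -0.05. The 95% intervals were -0.34 to 0.05 for Rela, -0.39 to 0.19 for Relb and -0.35 to 0.48 for Nfkbia. Log2 differences of 0.5 lay outside them, but equal values within thymus can make these intervals too narrow. The 3 WT arrays shared 1 value of Nfkbia, 11.36, while the 2 ENK KO arrays read 11.18 and 11.68. For Tnfaip3 the interval ran from -1.26 to 1.25, which leaves large differences undetectable with these arrays. Rela was the only member whose groups did not overlap, with both ENK KO arrays (mean 9.97 ± 0.05, SD, n = 2) below the WT arrays at 10.03, 10.06 and 10.25. Groups did not overlap for 9.25% of all tested genes. Of the 61 other pathway genes, 0 were called and 2 had an unadjusted p under 0.05. These were Rbck1 (-0.22, SE 0.07) and Sharpin (-0.14, SE 0.06), which encode parts of a ubiquitin ligase complex.

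In spleen CD8+ cells the differences between ENK KO and WT lay mostly below 0, and none passed the test. Limma called 0 of 9, against 0.00733% of all genes, and 0 of 9 without replicate 28, against 0.0147%. The difference was below 0 for 8 of 9 members, with a median of -0.18 against -0.01 over all genes, and for 9 of 9 without replicate 28 (median -0.16). At an unadjusted p under 0.05 there was 1 member, Bcl3, against 8.37% of all genes. Bcl3 differed by -0.30 (SE 0.11, 95% interval -0.53 to -0.06, adjusted p = 0.595 by limma), from a mean of 9.43 ± 0.25 in WT to 9.13 ± 0.17 in ENK KO, and by -0.35 (SE 0.11, adjusted p = 0.463 by limma) without replicate 28. The groups overlapped, ENK KO replicate 28 being at 9.33 and WT replicate 22 at 9.13. No member had groups that did not overlap, against 1.71% of all genes, or 3.56% without replicate 28.

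**Figure D3:**
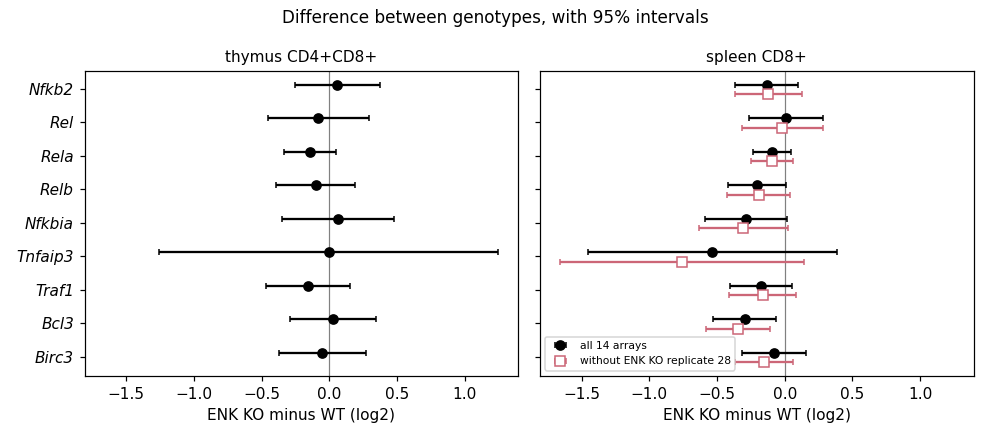
Difference between ENK KO and WT (log2, x axis) for 9 genes (y axis) in thymus (left) and spleen (right), with 95% intervals from limma as bars. Open squares are the fit that leaves out replicate 28 of spleen ENK KO. In spleen the points lie at or below 0, from -0.53 for Tnfaip3 to 0.01 for Rel, and each interval but that of Bcl3 reaches 0.

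Tnfaip3 varied more within spleen than any other member, with 2.28 log2 units between its lowest and highest array. The WT arrays read 10.89, 11.98, 12.19 and 12.61, and the ENK KO arrays 10.33, 10.71, 11.42, 12.16 and 12.29. Both genotypes thus held low and high arrays. The log2 difference of the means was -0.53 (SE 0.42, adjusted p = 0.734 by limma), or -0.76 (SE 0.41, adjusted p = 0.543) without replicate 28. The 2 lowest ENK KO arrays came from the 2-month-old females, and without the 2-month-old mice the difference was 0.04 (SE 0.39) with replicate 28 kept. With replicate 28 left out as well, the older ENK KO arrays had a mean of 11.79 against 11.92 in WT, a difference of -0.13 with no test. Nfkbia read 11.03, 11.08, 11.45 and 11.59 in WT and 10.79, 10.80, 11.06, 11.08 and 11.28 in ENK KO. Its difference was -0.29 (SE 0.14, adjusted p = 0.605 by limma), and -0.15 (SE 0.13) without the 2-month-old mice (-0.12 with replicate 28 also left out), whose arrays were again the lowest. For 5 of 9 members, namely Rel, Rela, Nfkbia, Tnfaip3 and Birc3, the 2-month-old mice gave the 2 lowest of the 5 ENK KO spleen arrays. The share over all tested genes was not counted, so this order cannot be called particular to the members. Age, sex and genotype cannot be told apart for these 2 arrays.

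Markers of platelets and red cells lay lower in ENK KO than in WT spleen. Of 7 listed, 5 were measured, and their mean log2 level was 7.58 to 7.70 on the WT arrays, 6.93 to 7.38 on the ENK KO arrays other than replicate 28, and 7.32 on that library. Ppbp differed by -1.44 (SE 0.17). Of the 4 tested, 1 was called, lower in ENK KO, namely Ppbp, a chemokine gene of platelets. B cell markers were lower in their means without passing the test: 0 of 6 were called, 0 of 6 lay above 0 (median -0.28), and 2 had an unadjusted p under 0.05, Ms4a1 (-0.54, SE 0.22) and Cd79a (-0.62, SE 0.27). Without replicate 28 the same 2 genes had an unadjusted p under 0.05. The part of these cells in the member values was not tested.

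The other members had smaller differences between genotypes in spleen. Relb was at -0.20 (SE 0.10), Traf1 at -0.18 (SE 0.11), Nfkb2 at -0.13 (SE 0.11), Rela at -0.09 (SE 0.07), Birc3 at -0.08 (SE 0.11) and Rel at 0.01 (SE 0.13). Without replicate 28 the differences were, in the same order, -0.19, -0.16, -0.12, -0.09, -0.15 and -0.02. With all arrays the 95% intervals of these genes reached no lower than -0.42, for Relb, and no higher than 0.28, for Rel. Of the 61 other pathway genes, limma called 0, and 5 had an unadjusted p under 0.05. These were the receptor genes Tnfrsf13c (-0.17, SE 0.05), Il18r1 (-0.27, SE 0.11) and Tnfrsf1b (-0.26, SE 0.11), Cflar, an inhibitor of death receptor signalling (0.24, SE 0.09), and Ikbkb (0.11, SE 0.05). The spleen difference minus the thymus difference, the test of whether genotype acted differently in the populations, gave 0 calls among the 9 members, against 0.00733% of all genes, and 0 at an unadjusted p under 0.05, against 2.99%. It ran from -0.53 for Tnfaip3 to 0.09 for Rel, with a 95% interval of -2.09 to 1.02 for Tnfaip3 and -0.72 to 0.07 for Bcl3.

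Within spleen the members other than Bcl3 were positively correlated from array to array, some of them weakly by rank. Over the 8 spleen arrays without replicate 28, all 28 pairs among the other 8 members had a Pearson correlation above 0. Nfkbia and Tnfaip3, the inhibitor and the ubiquitin-editing enzyme, put the 8 arrays in the same order (Pearson r = 0.92, Spearman rho = 1). Relb and Nfkb2, partners in the non-canonical arm, had r = 0.92 and rho = 0.83, and Rel and Birc3 r = 0.90 and rho = 0.71. By rank other pairs were weaker. Nfkb2 and Birc3 had r = 0.87 but rho = 0.43, and Relb and Birc3 r = 0.89 but rho = 0.50. Of the 8 pairs with Bcl3, 2 were below 0, with r = -0.28 for Rel and Bcl3. Those values pool WT and ENK KO, whose Bcl3 means differ. Taken as deviations from the group means over 13 arrays of both tissues, 7 of the 8 pairs with Bcl3 were below 0, down to r = -0.62 with Tnfaip3, and no pair among the other members was. WT replicate 34 was the highest spleen array for each member but Bcl3. These are descriptions of 8 arrays that share genotype, age and handling within groups, and no test was made. The share of pairs above 0 among all genes was not counted.

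Immediate early genes, which respond quickly to signals and to cell handling, moved with Nfkbia, Tnfaip3 and Relb across the spleen arrays. Their relation to the other members was weaker over the 8 arrays without replicate 28. All 12 listed genes were measured, among them Fos, Junb and Egr1, and their mean was 10.1 to 10.7 on WT spleen arrays. On the ENK KO spleen arrays other than replicate 28 it spanned 9.70 to 10.8, the 2-month-old animals being lowest, and it was 9.25 to 9.74 in thymus. Over the 8 spleen arrays this mean had r = 0.82 and rho = 0.83 with Tnfaip3. Without the 2 arrays farthest from its median r was 0.84. Those 2 were the highest arrays, ENK KO replicate 31 (10.76) and WT replicate 37 (10.70). Both 2-month-old arrays, at the low end, thus stayed in. With Nfkbia the mean had r = 0.85 and rho = 0.83 (r = 0.92 without those 2 highest arrays). With Relb it had r = 0.70 and rho = 0.90 (0.85), and with Traf1 r = 0.61 and rho = 0.69 (0.84). Nfkb2 had r = 0.45 and rho = 0.72 (0.73), Rel r = 0.43 and rho = 0.52 (0.57), Rela r = 0.41 and rho = 0.50 (0.84) and Birc3 r = 0.47 and rho = 0.45 (0.81). Bcl3 had r = 0.07 and rho = 0.12, and r = 0.52 without those 2 arrays, so its low value rests on them. With too few arrays in each genotype for a correlation of its own, these values pool WT and ENK KO. In spleen 0 of 12 immediate early genes were called between genotypes, with Fos at -0.67 (SE 0.36) and Dusp1 at -0.71 (SE 0.44), both like Tnfaip3 below 0. Their part in the member values was not tested.

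**Figure D4:**
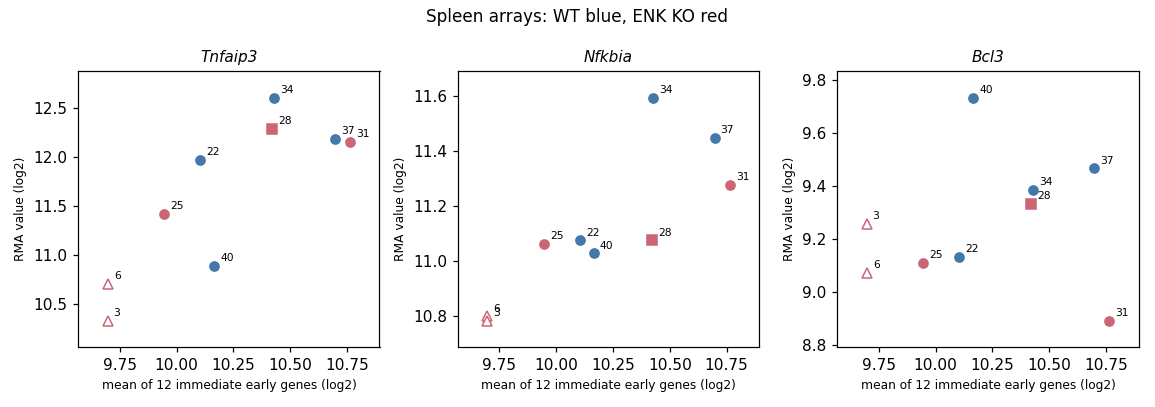
RMA value (log2, y axis) of Tnfaip3, Nfkbia and Bcl3 against the mean of 12 immediate early genes (log2, x axis) on the 9 spleen arrays, WT in blue and ENK KO in red, labelled by replicate number. Open triangles are the 2-month-old animals and the square is the library labelled ENK KO replicate 28. Tnfaip3 and Nfkbia are lowest on the 2-month-old arrays 3 and 6, which also have the lowest mean, while Bcl3 is not lowest there.

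The genes whose deviations from the group means were most like those of Tnfaip3, over 13 arrays without replicate 28, were Dusp5 (r = 0.94), Rgs1 (r = 0.94) and Zc3h12a (r = 0.94), the last also on the list of negative regulators. For Nfkbia they were Me2 (r = 0.91), Gas5 (r = 0.91) and Xbp1 (r = 0.90). These are the highest of all tested genes by construction and carry no test.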

How the data were processed

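Gene expression was measured on 14 arrays, and the deposited table holds log2 values per probe set that the authors made with RMA, per the submitters' processing notes. Software versions, the genome build and whether all arrays were summarised in 1 run are not stated there. Scanner intensities were not used. Of 28213 probe sets, 21640 had 1 gene symbol in the platform annotation, 1321 had several and 5252 had none listed. Symbols were checked by gene ID against RefSeq on GRCm38.p6 (21553 matched, 0 changed). Each of 19937 symbols kept its probe set with the highest mean, and the 13641 genes that exceeded 6.76, the 40th percentile of the table, on 2 or more arrays were tested.

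The 4 group means were fitted jointly over all 14 arrays with limma 3.58.1 (R 4.3.3, eBayes with a trend), with two-sided p-values adjusted over all genes. The labels do not say that samples came from separate animals, so p-values measure the spread between samples. The number of arrays limits the precision. No sample numbers were shared between groups. The members and the other lists were chosen with earlier results of these data known. All members are named, with up to 4 genes of each other list by smallest p in the comparison described, and the 3 genes most like Nfkbia and Tnfaip3. The same fit was tested on simulated data with 100 genes changed at each size, among 13641 genes. A log2 change of 0.5 was called in 63.0% in the thymus comparison and 84.0% in the spleen comparison. In the real data 0.0147% of genes were called in thymus and 0.00733% in spleen, fewer genes than the simulation changed. The adjusted threshold is stricter with fewer changed genes, so these shares do not give the power for the members. Promoters were searched with Python 3.11.15.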

Additional observations from a re-analysis of the deposited data

How the results depend on the processing

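No paired analysis was possible because the groups share no replicate numbers. The number of members called kept within 1.5 times its reported value in every alternative run. These runs were filters on low values, quantile normalization, median centring, means of probe sets, other variance models and array weights. Further runs were each tissue alone, sex and age as covariates, with sex taken from the labels, and arrays left out. For the genotype comparisons and their difference the number of members called was 0 throughout. The 6 genes called higher in spleen were called in all 27 fits in both genotypes. The call of Nfkbia in ENK KO held in 13 of 27 fits, its difference running from -0.68 to -0.04, both ends from fits with 1 thymus ENK KO array left. Between genotypes in spleen, Tnfaip3 ran from -0.88 to 0.04 (the upper end with replicate 28 kept and the 2-month-old mice left out), Rel from -0.08 to 0.15 and Birc3 from -0.17 to 0.03, while Bcl3 ran from -0.44 to -0.20. Spleen arrays alone without replicate 28, a fit added after seeing the data, also called 0 members. Whether tissues were summarised separately limits every difference between them.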
